A study of Homo sapiens with 4 samples.

Results

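The genes described here are 35 genes of the major histocompatibility complex (MHC) and of antigen presentation, taken from the 16422 genes that could be named on the arrays. They were chosen by name: 6 chains of class I molecules, 7 genes of peptide transport, trimming and loading, 5 genes of the immunoproteasome and its activator, 12 genes of class II molecules and their peptide loading, 3 transcription regulators and 2 ligands of the receptor NKG2D. All 35 had at least 1 probe, with 61 probes in all. At least 1 probe reached a signal of 100 on at least 1 array for 30 of them, as for 12159 of all named genes, and such probes are called kept. The other 5, ERAP1, ERAP2, CD74, HLA-DPA1 and HLA-DQA1, did not pass this filter and are described apart.

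SkBr3 and BT474 are established HER2-positive breast cancer cell lines, and RNA was profiled from vehicle-treated parental cells of each and from 1 lapatinib-resistant clone of each, SkBr3/Lap and BT474/Lap. Lapatinib inhibits the tyrosine kinases EGFR and HER2, and the clones were selected with rising concentrations up to 1 μM. All cells were grown in the same medium, lapatinib aside. For its protein blots the paper describes both clones as kept in 1 μM lapatinib, and it does not say whether this held for the arrays. Presence of the drug and resistance therefore cannot be told apart here. Each clone stands for itself and not for resistance in general. With 1 array hybridised per condition, 4 in all, no change has a check by replicates and the number of arrays limits the precision. The sample labels number the SkBr3 clone 3 and the BT474 clone 6, and other names of the same clones have these numbers exchanged, so they are left out here.

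MHC class I molecules, a heavy chain held together by β2-microglobulin, show peptides from proteins made inside the cell to CD8 T cells, and nearly every cell type carries them. The peptides are cut by the proteasome, whose interferon-inducible form is the immunoproteasome, pumped into the endoplasmic reticulum by the transporter TAP and loaded there with the help of tapasin, calreticulin and PDIA3. Class II molecules show peptides from endosomes to CD4 T cells and are usually found on professional antigen-presenting cells, but epithelial and cancer cells can make them under the control of CIITA, the class II transactivator. NLRC5 is the related transactivator of class I genes, and both act on promoters bound by the RFX complex and NF-Y.

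The promoter windows shown first are those of TAP1, PSMB9 and B2M, which were higher in SkBr3/Lap, and of HLA-DRB1, HLA-DMB and HLA-DMA, which were higher in BT474/Lap. They are the 250 bases before the gene's start in RefSeq on GRCh38.p14, written 5′ to 3′ on the gene's strand. Capitals mark every match, on either strand, to an interferon response core (GAAANNGAA), an X box core (AGNAACNG) or CCAAT, the core of the Y box that NF-Y binds. TAP1 and PSMB9 face away from each other, and their starts share the bases between them.
TAP1, chr6:32853705-32853954, minus strand: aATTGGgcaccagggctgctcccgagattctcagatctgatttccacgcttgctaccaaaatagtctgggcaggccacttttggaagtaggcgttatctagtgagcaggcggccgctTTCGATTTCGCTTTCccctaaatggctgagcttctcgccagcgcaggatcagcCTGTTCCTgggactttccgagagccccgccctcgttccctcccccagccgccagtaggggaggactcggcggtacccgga
PSMB9, chr6:32853942-32854191, plus strand: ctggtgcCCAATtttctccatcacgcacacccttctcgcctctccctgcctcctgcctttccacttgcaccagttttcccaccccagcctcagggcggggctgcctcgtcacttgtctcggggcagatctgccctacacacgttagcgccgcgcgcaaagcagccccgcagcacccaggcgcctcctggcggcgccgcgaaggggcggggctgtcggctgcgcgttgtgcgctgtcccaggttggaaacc
B2M, chr15:44711267-44711516, plus strand: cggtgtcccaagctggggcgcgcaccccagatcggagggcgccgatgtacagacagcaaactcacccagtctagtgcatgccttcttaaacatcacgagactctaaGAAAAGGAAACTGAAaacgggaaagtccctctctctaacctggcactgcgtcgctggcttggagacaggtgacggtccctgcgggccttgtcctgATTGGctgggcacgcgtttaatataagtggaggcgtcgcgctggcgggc
HLA-DRB1, chr6:32589849-32590098, minus strand: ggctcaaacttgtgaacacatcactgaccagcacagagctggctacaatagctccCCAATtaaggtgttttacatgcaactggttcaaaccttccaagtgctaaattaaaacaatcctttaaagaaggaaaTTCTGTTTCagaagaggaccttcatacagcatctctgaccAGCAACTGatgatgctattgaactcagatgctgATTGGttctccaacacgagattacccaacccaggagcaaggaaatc
HLA-DMB, chr6:32941029-32941278, minus strand: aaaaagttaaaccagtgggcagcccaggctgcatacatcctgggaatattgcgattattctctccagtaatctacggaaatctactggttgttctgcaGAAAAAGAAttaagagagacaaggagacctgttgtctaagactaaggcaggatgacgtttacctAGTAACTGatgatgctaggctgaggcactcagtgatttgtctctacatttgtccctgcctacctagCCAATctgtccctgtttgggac
HLA-DMA, chr6:32953098-32953347, minus strand: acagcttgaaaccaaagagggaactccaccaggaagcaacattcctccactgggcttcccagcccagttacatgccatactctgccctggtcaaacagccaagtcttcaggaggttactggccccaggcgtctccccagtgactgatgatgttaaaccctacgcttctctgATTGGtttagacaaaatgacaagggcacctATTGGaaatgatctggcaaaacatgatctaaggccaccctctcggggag
The B2M window held 2 overlapping interferon response cores, which began 144 and 138 bases before the start, and the TAP1 window held 2 as well, at 133 and 127 bases. The HLA-DRB1 and HLA-DMB windows each held an X box core, 79 and 88 bases before the start, followed by a CCAAT on one or the other strand. Each of these 2 windows also held an interferon response core, at 119 and 152 bases, and the TAP1 window held an X box core at 80 bases. HLA-DMA held no X box core in these letters but 2 CCAAT cores, and PSMB9 held only a CCAAT, in the stretch it shares with TAP1.

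Over the genes of the set, 29 had windows in the table, 38 in all. The interferon response core was found in 13 of the 38 windows, against 6.88% of all windows of this length, and CCAAT in 21 of the 38, against 32.0% of all windows. Of the 11 windows of class II genes, 6 held the X box core, against 12.6% of all windows, and 9 held CCAAT. None of the 7 windows of class I chains held an X box core in these letters. Windows of genes at least 2-fold higher in SkBr3/Lap held the interferon response core in 4 of 14 and the X box core in 5 of 14. Those of genes at least 2-fold higher in BT474/Lap held them in 2 of 8 and 4 of 8, so both cores occurred with either clone. A GAS site (TTCNNNGAA) was found in 3 of the 38 windows, against 6.57% of all, and a κB core (GGGANTTCC) in 2, against 1.59%. The κB core was sought in these letters only, so that other forms of the site, such as gggactttcc in the TAP1 window, were not counted. These matches describe letters in a window and show no binding.

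Levels are given as relative signals, the deposited processed signal of the probe divided by the 75th percentile of all probes on that array, which was 1115 in SkBr3 and 2074 in SkBr3/Lap, and 1158 in BT474 and 1681 in BT474/Lap. They may be compared between arrays for 1 probe but not between probes. No spot of these genes was saturated. The software marks a probe as well above background or not, and the lowest signal so marked was 13.3 to 16. Where only 1 array of a pair passed this mark, the other was set to the lowest such signal, if it was lower, and the fold is a limit. Probes spotted 10 times had a median SD of 0.07 to 0.08 on the log2 scale among their spots, so that a log2 difference under 0.11 is within the spread of spots on 1 array, which is smaller than the unmeasured spread between cultures.

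Of 8 markers of epithelial HER2-positive breast cancer cells, ERBB2, GRB7, KRT8, KRT18, KRT19, EPCAM and GATA3 were well above background on all 4 arrays. CDH1 passed this mark in the BT474 pair only, and 66.6% to 74.0% of all probes on an array passed it. ERBB2 was 3.74-fold and GRB7 2.29-fold lower in SkBr3/Lap than in SkBr3, while 0 of the 8 changed 2-fold in BT474/Lap. One slide held the arrays of SkBr3, BT474 and BT474/Lap and another that of SkBr3/Lap, so that slide and resistance cannot be told apart in the SkBr3 pair. In bulk RNA, fewer cells of a type and less RNA per cell cannot be told apart.

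Of the 30 genes with a kept probe, SkBr3/Lap had 12 that were at least 2-fold higher, against 13.5% of all named genes, and 1 that was at least 2-fold lower, against 13.0% of them. BT474/Lap had 9 past that threshold upward, against 8.60% of all named genes, and 1 downward, against 5.15%. Among genes for which a fold or a limit could be given, the log2 fold changes had medians of 0.67 for SkBr3/Lap (26 genes) and 0.43 for BT474/Lap (29 genes), and those over all named genes were -0.05 and -0.08. Higher in both clones were 2, PSMB8 and MICB, where 2.46% of all named genes were higher in both. The filter let in 6 of the 30 through a single array, TAP2 and NLRC5 through SkBr3/Lap and HLA-DRA, HLA-DPB1, HLA-DMB and CIITA through BT474/Lap. Such passage favours genes that are higher on that array, so their rises there are no independent sign of a change. Where only probes above background throughout were used, 10 of 25 genes were higher in SkBr3/Lap and 4 of 25 in BT474/Lap, where 10.2% and 6.08% of all such genes were. Scaling by the median moved the median of all genes to 0.11 for SkBr3/Lap and -0.29 for BT474/Lap, and the genes described here then lay 0.73 and 0.52 above it.

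**Figure D1:**
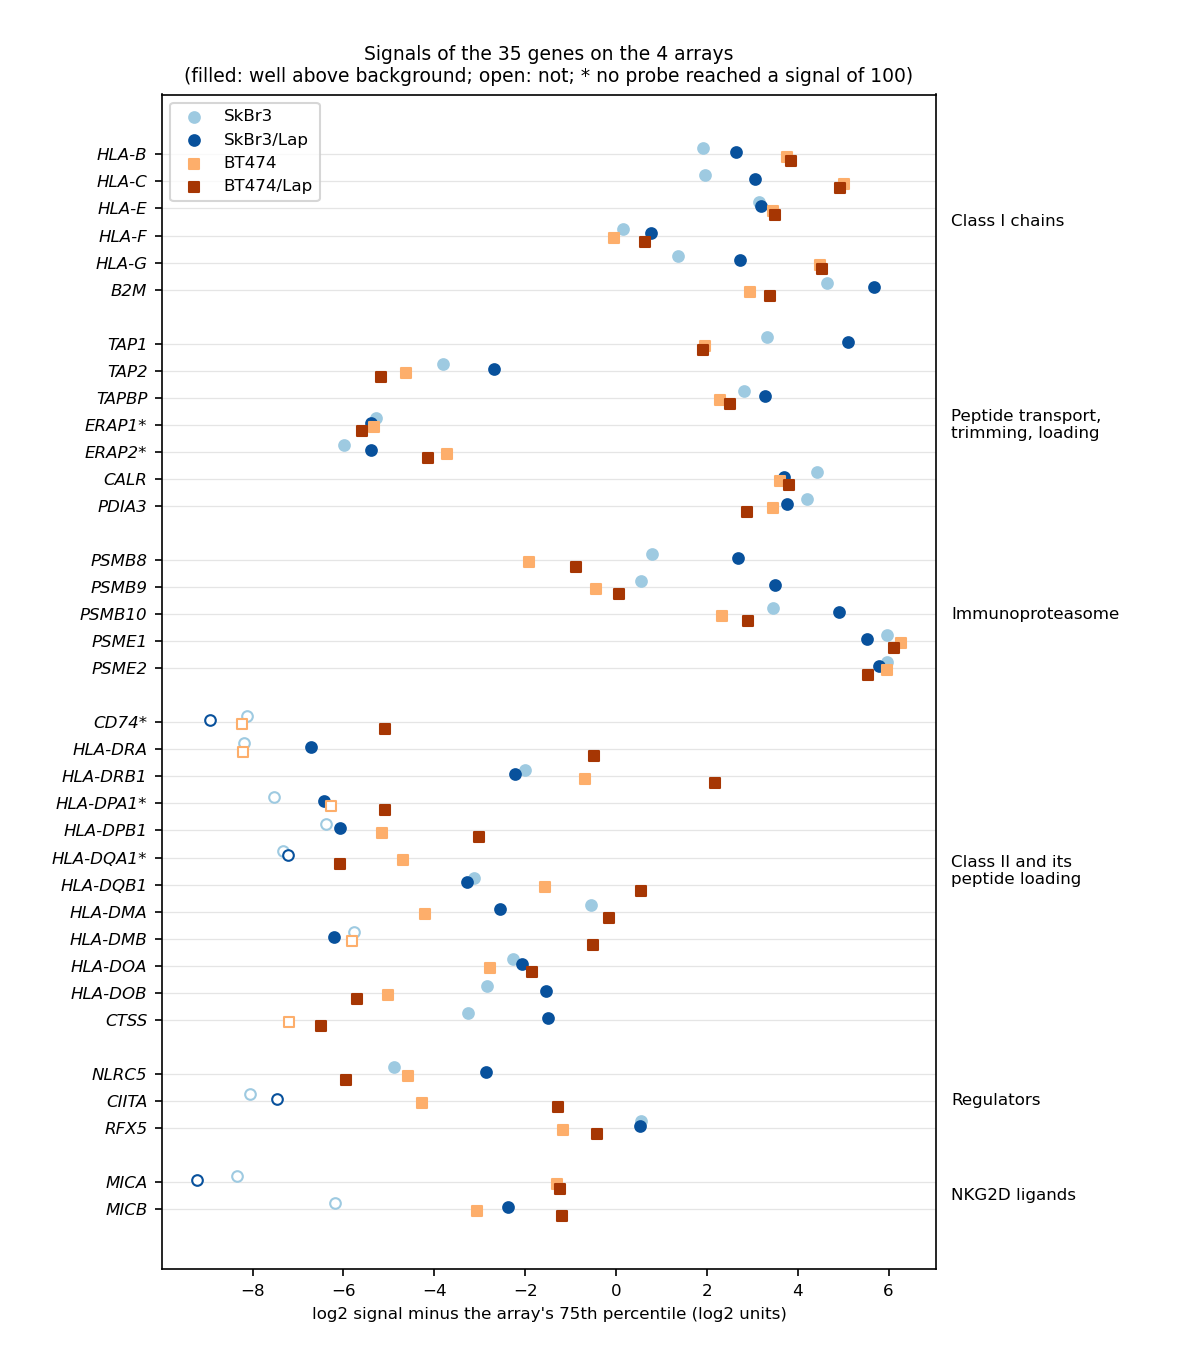
Each row is 1 gene, shown by the kept probe of highest mean, or by its brightest probe where none was kept (*), and each point is 1 array. The horizontal axis is the log2 signal minus the array's 75th percentile, filled points are well above background, and positions are to be compared within a row. HLA-DRA and HLA-DMB are near the floor on 3 arrays and far higher on the BT474/Lap array, and TAP1 and PSMB9 are highest on the SkBr3/Lap array.

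The log2 fold changes are drawn for both clones by role. Of the 16 kept genes from the class I chains to the immunoproteasome, 8 were at least 2-fold higher in SkBr3/Lap and 1, PSMB8, in BT474/Lap. The shares of all named genes were 13.5% and 8.60%, and 1 of the 8, TAP2, had passed the filter through the SkBr3/Lap array alone. HLA-DRA, HLA-DRB1, HLA-DPB1, HLA-DQB1, HLA-DMA, HLA-DMB and CIITA were at least 2-fold higher in BT474/Lap. Among these, HLA-DRA, HLA-DPB1, HLA-DMB and CIITA had passed the filter through that array alone. HLA-DOA stayed under 2-fold in both clones. HLA-DOB and CTSS, of the class II side, were higher in SkBr3/Lap. By the kept probe, no fold could be given in SkBr3/Lap for HLA-DRA, HLA-DMB, CIITA and MICA and in BT474/Lap for CTSS, because their signals there were at or near background.

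**Figure D2:**
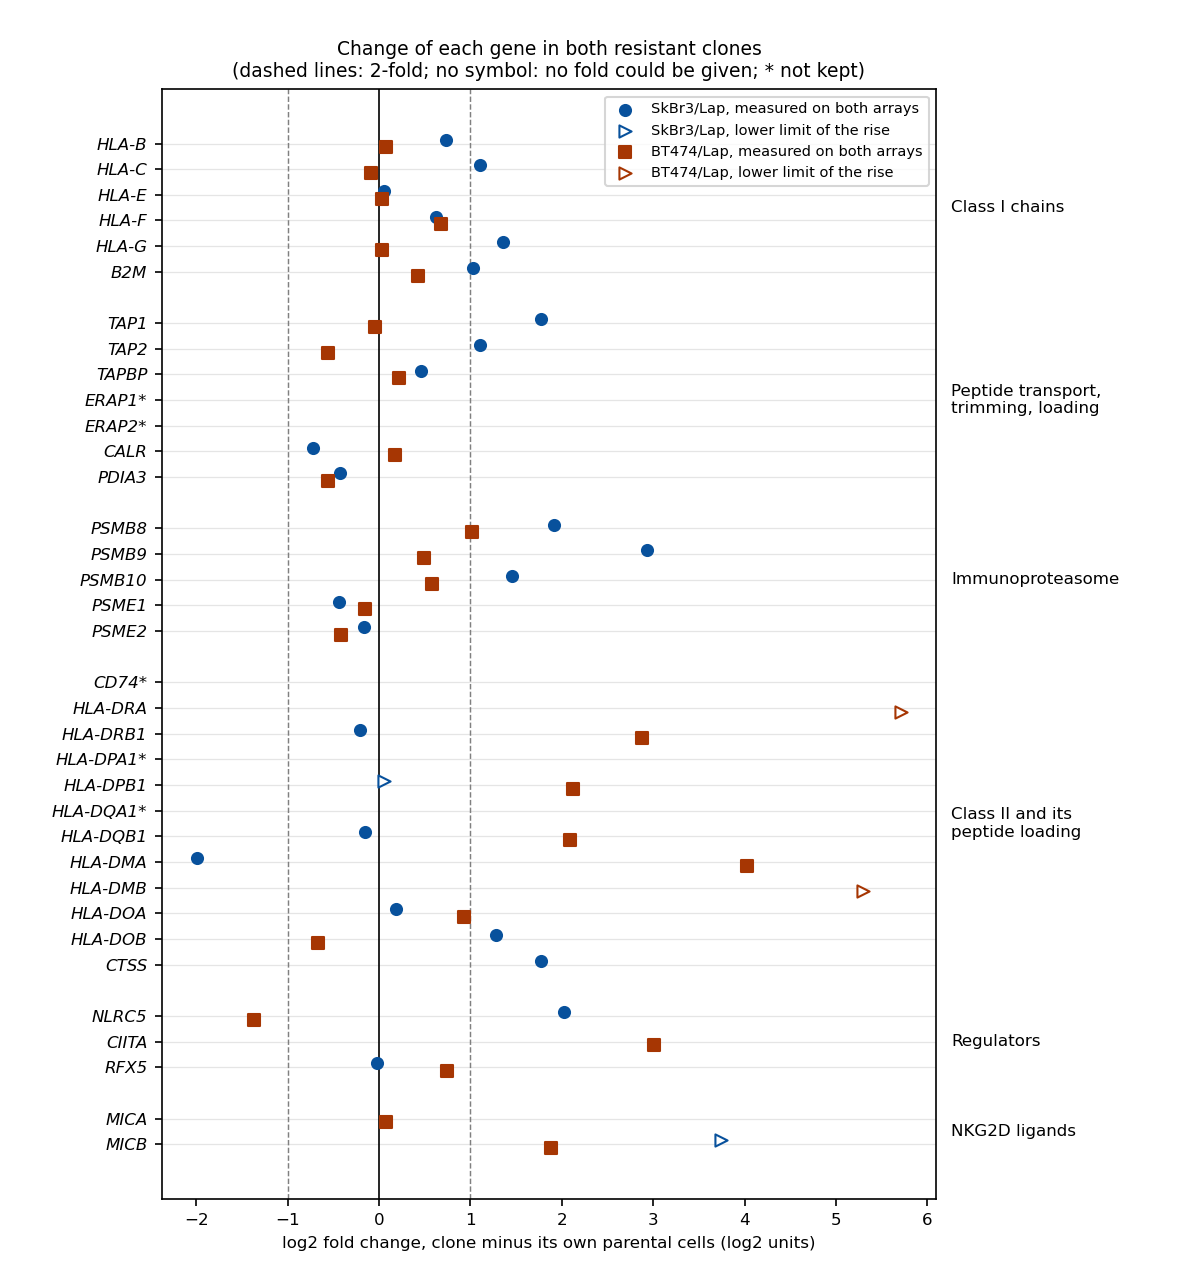
Log2 fold change of each kept gene, clone minus its own parental cells, with circles for SkBr3/Lap and squares for BT474/Lap. Open triangles are lower limits, where the parental signal was at background, and the dashed lines mark 2-fold. The class II rows run to 5.71 in BT474/Lap, where the rows of the class I chains stay below 1.

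Among class I chains, 3 of 6 were at least 2-fold higher in SkBr3/Lap and 0 in BT474/Lap, with median log2 fold changes of 0.88 and 0.05. The shares of all named genes that were higher were 13.5% and 8.60%. B2M, the light chain shared by all class I molecules, had relative signals of 24.9 in SkBr3 and 50.7 in SkBr3/Lap, and 7.72 in BT474 and 10.4 in BT474/Lap. The SkBr3/Lap level was 2.04 times and the BT474/Lap level 1.35 times the parental one. Its 10 spots had SDs of 0.06 to 0.07 on the log2 scale on every array, so both differences exceed the spread of spots. HLA-C, a classical heavy chain, had relative signals of 3.89, 8.33, 32.5 and 30.5 in the same order, with log2 fold changes of 1.1 and -0.09. The SkBr3/Lap value was 0.89 after normexp background correction and quantile normalization, under 2-fold. HLA-B, another classical heavy chain, was at 3.76, 6.23, 13.7 and 14.4, or 1.66-fold and 1.06-fold higher in the clones, and its second probe gave 1.83-fold and 1.49-fold.

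The non-classical chains differed among themselves. HLA-E, the ligand of the inhibitory receptor NKG2A on natural killer cells, was nearly level, at 8.83 and 9.14 in the SkBr3 pair and 11 and 11.2 in the BT474 pair, and its 3 probes gave log2 fold changes of 0.05 to 0.49 in SkBr3/Lap and 0.00 to 0.59 in BT474/Lap. HLA-F was under 2-fold by its brighter probe in both clones, with log2 fold changes of 0.62 and 0.68, whereas its other probe was 2.62-fold and 3.05-fold higher. HLA-G, known for its part in maternal tolerance, had a kept probe at 2.56, 6.58, 22.7 and 23.1, which was 2.57-fold higher in SkBr3/Lap. A second HLA-G probe was not well above background on any array. The class I heavy chains are near-identical over long stretches, so a probe may bind transcripts of more than 1 of them, which was not tested.

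In the step of peptide transport and loading, 2 of the 5 kept genes were at least 2-fold higher in SkBr3/Lap and 0 in BT474/Lap. The shares of all named genes were 13.5% and 8.60%, and 1 of the 2, TAP2, had passed the filter through the SkBr3/Lap array alone. TAP1, a subunit of the peptide transporter, had relative signals of 10 in SkBr3 and 34.4 in SkBr3/Lap, and 3.86 in BT474 and 3.75 in BT474/Lap. It was thus 3.42-fold higher in SkBr3/Lap and level in BT474/Lap, with a log2 fold change of -0.04. TAP2, the other subunit, was at 0.0718, 0.155, 0.0406 and 0.0275, with log2 fold changes of 1.11 and -0.56. A second TAP2 probe gave 1.19 in SkBr3/Lap, and normexp correction with quantile normalization took the first to 0.88. TAPBP, which encodes tapasin, the bridge between TAP and class I molecules, had log2 fold changes of 0.46 and 0.22. The chaperones CALR and PDIA3 were lower in SkBr3/Lap by less than 2-fold (-0.72 and -0.43). ERAP1 and ERAP2, which trim peptides in the endoplasmic reticulum, stayed under a signal of 100 on every array, with brightest values of 49.1 and 96.1.

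The catalytic subunits of the immunoproteasome stood highest in SkBr3/Lap. PSMB9 (also LMP2) had relative signals of 1.47 in SkBr3 and 11.2 in SkBr3/Lap, and 0.743 in BT474 and 1.05 in BT474/Lap, or 7.62-fold and 1.41-fold higher in the clones. PSMB8 (also LMP7) was at 1.72, 6.47, 0.266 and 0.540, or 3.75-fold and 2.03-fold higher, and the log2 fold change of 1.02 in BT474/Lap was at 0.70 after normexp correction with quantile normalization, 0.81 with median scaling and 0.95 with quantile normalization. PSMB10 (also MECL-1) was at 11, 30.1, 5.02 and 7.51, or 2.74-fold and 1.5-fold higher. All 3 were highest on the SkBr3/Lap array and lowest on the BT474 array. The genes of the activator PA28, PSME1 and PSME2, were slightly lower in both clones by their brighter probes, with log2 fold changes of -0.44 and -0.16 in SkBr3/Lap and -0.15 and -0.42 in BT474/Lap, and the other PSME1 probe gave 0.24 in BT474/Lap. Of 15 further proteasome genes, the constitutive core subunits and the activator gene PSME3, 0 changed 2-fold in either clone by their brightest probes, with medians of 0.14 and -0.07, although another probe of PSME3, named after its values were seen, was 2.4-fold higher in SkBr3/Lap.

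Of the 9 kept class II genes, 6 were at least 2-fold higher and 0 lower in BT474/Lap, with a median log2 fold change of 2.50 over the 8 with a fold or limit. In SkBr3/Lap 2 were higher, 1 lower and the median was 0.05. The shares of all named genes were 8.60% higher and 5.15% lower in BT474/Lap, and 13.5% and 13.0% in SkBr3/Lap. HLA-DRA, HLA-DPB1 and HLA-DMB had passed the filter through the BT474/Lap array alone, which favours a higher value there, and without them 3 of 6 were higher in BT474/Lap. HLA-DRA, the invariant α chain of HLA-DR, had relative signals of 0.00341 in SkBr3 and 0.00946 in SkBr3/Lap, and 0.00338 in BT474 and 0.719 in BT474/Lap. Neither parental signal was well above background, so the rise in BT474/Lap was at least 52.2-fold, and no fold was given in SkBr3/Lap. This limit, 5.71 on the log2 scale, was 3.86 after normexp correction with quantile normalization and 4.73 with 16 added to the signals. HLA-DRB1, a β chain of HLA-DR, was at 0.248, 0.214, 0.618 and 4.55, or 7.36-fold higher in BT474/Lap, with SDs of 0.04 to 0.20 on the log2 scale among its 10 spots. Its log2 fold change in SkBr3/Lap was -0.21.

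The HLA-DM genes encode the chaperone that exchanges the invariant chain fragment for peptide on class II molecules. HLA-DMA had relative signals of 0.676 in SkBr3 and 0.170 in SkBr3/Lap, and 0.0546 in BT474 and 0.893 in BT474/Lap. It thus stood 3.97-fold lower in SkBr3/Lap but 16.3-fold higher in BT474/Lap, and a second probe gave 3.78-fold lower and 14.5-fold higher. HLA-DMB was well above background only in the clones, with 0.0136 for SkBr3/Lap and 0.704 for BT474/Lap, and the latter was at least 39.4-fold above its parental cells. On the log2 scale this limit was 5.30, with 3.46 after normexp correction with quantile normalization and 4.50 with 16 added, and the HLA-DMA value in BT474/Lap went from 4.03 to 3.34 by the former.

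The DP and DQ chains are the other class II pairs. HLA-DQB1 was at 0.114, 0.103, 0.339 and 1.45, or 4.27-fold higher in BT474/Lap, and HLA-DPB1 at 0.0119 (not well above background), 0.0149, 0.0282 and 0.123, or 4.35-fold higher. The HLA-DPB1 value of 2.12 on the log2 scale was 1.02 after normexp correction with quantile normalization. Their partner chains did not reach a signal of 100. HLA-DPA1 was 49.3 in BT474/Lap and not well above background in BT474, at least 2.13-fold, while HLA-DQA1 went the other way, from 44.7 in BT474 to 24.9 in BT474/Lap, 2.60-fold lower. CD74, the invariant chain, was well above background in BT474/Lap alone, and there only at a signal of 49.7, at least 2.15-fold above its parental cells.

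HLA-DO is the partner that restrains HLA-DM, and the protease CTSS cleaves the invariant chain. HLA-DOB was at 0.141 in SkBr3 and 0.343 in SkBr3/Lap, and 0.0306 in BT474 and 0.0192 in BT474/Lap, with log2 fold changes of 1.28 and -0.67. HLA-DOA, the other chain of HLA-DO, had log2 fold changes of 0.19 and 0.93, both under 2-fold. CTSS was at 0.104, 0.355, 0.00687 (not well above background) and 0.0110, or 3.40-fold higher in SkBr3/Lap. Its second probe, dim in SkBr3 and at 30.2 in SkBr3/Lap, gave a limit of at least 1.01-fold.

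Of 14 leukocyte markers, 8 and 9 were well above background in SkBr3 and SkBr3/Lap and 7 and 9 in BT474 and BT474/Lap. In the same order, 66.6%, 73.7%, 68.3% and 74.0% of all probes passed this mark. Their summed relative signal was 1.24 in BT474 and 1.37 in BT474/Lap, and 7.25 and 21.8 in the SkBr3 pair, where CSF1R made up most of it. PTPRC, LAPTM5, MS4A1 and ITGAX were at background on all 4 arrays, and CD53 passed it in BT474/Lap alone, at a signal of 48.5. The samples were cultures of established cell lines and not tissue, and whether any other cells had a part in the class II values was not tested.

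The regulators differed between the clones. CIITA was at 0.0515 in BT474 and 0.414 in BT474/Lap, 8.03-fold higher, and at background in both SkBr3 arrays (0.00376 and 0.00562). A second CIITA probe, under a signal of 100, was at least 2.93-fold higher in BT474/Lap and, unlike the first, was well above background in SkBr3 (signal 53.4) and not in SkBr3/Lap, where it was at least 7.46-fold lower. The first probe's log2 fold change of 3.01 in BT474/Lap was 2.15 after normexp correction with quantile normalization. NLRC5 was at 0.0340, 0.138, 0.0419 and 0.0163, or 4.05-fold higher in SkBr3/Lap and 2.58-fold lower in BT474/Lap. Of its 2 other probes, both under 100, one was at least 1.5-fold higher in SkBr3/Lap and at least 1.01-fold higher in BT474/Lap, so that the direction in BT474/Lap differed between probes, and normexp correction with quantile normalization put the first at 1.23 in SkBr3/Lap and -0.65 in BT474/Lap, against 2.02 and -1.37. RFX5, the DNA-binding subunit of the RFX complex, was at 1.46, 1.43, 0.447 and 0.748, with log2 fold changes of -0.02 and 0.74. Of 6 genes that act with it, 0 were higher 2-fold in either clone and 1 was lower in SkBr3/Lap, NFYB (-1.92), which was named after its value was seen.

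MICA and MICB mark stressed cells for natural killer cells through NKG2D. MICB had relative signals of 0.0137 in SkBr3 (not well above background) and 0.193 in SkBr3/Lap, and 0.120 in BT474 and 0.442 in BT474/Lap, or at least 13.4-fold and 3.69-fold higher. The other MICB probe gave at least 1.27-fold and 1.29-fold, so that the rise was past 2-fold by one probe only. The limit of 3.74 on the log2 scale in SkBr3/Lap was 2.16 after normexp correction with quantile normalization and 2.81 with 16 added. MICA was at background in the SkBr3 pair and level in the BT474 pair, at 0.405 and 0.427.

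**Figure D3:**
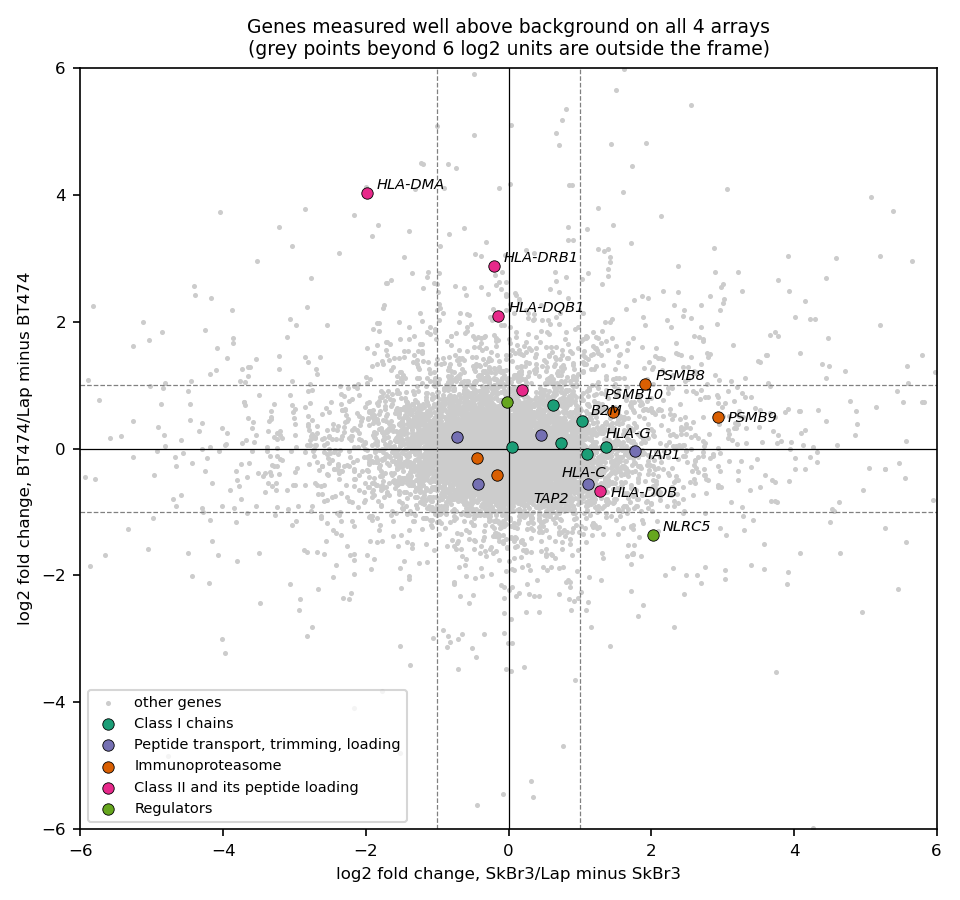
Log2 fold changes in SkBr3/Lap (horizontal) and BT474/Lap (vertical) of genes measured well above background on all 4 arrays, with the 23 kept genes of the set in colour by role and other genes in grey. The immunoproteasome genes and TAP1 lie to the right, HLA-DRB1 and HLA-DQB1 lie above the centre, and HLA-DMA and NLRC5 lie on opposite sides of it.

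A single test took both clones together. With the lines as a block and 1 residual degree of freedom, limma found 0 of the 30 genes with an adjusted p below 0.05, as of all 12159 named genes (0%). At an unadjusted p below 0.05 it found 2 of the 30, MICB and PSMB8, where 4% of all named genes passed. This fit asks only for changes that the clones share, and for HLA-DMA or NLRC5 it averages opposite values.

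Chromosome 6 carries 22 of the 35 genes, and the plot by their order shows how the changes lie along it. HLA-DOB, TAP2, PSMB8, TAP1 and PSMB9 follow each other with no other protein-coding gene between them, and all 5 were at least 2-fold higher in SkBr3/Lap. Among them TAP2 had passed the filter through the SkBr3/Lap array alone, and its log2 fold change was 0.88 after normexp correction with quantile normalization. HLA-DMB and HLA-DMA come next, again with none between, and there SkBr3/Lap turned to -1.99 for HLA-DMA, while BT474/Lap went from 0.49 for PSMB9 to at least 5.30 for HLA-DMB.

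**Figure D4:**
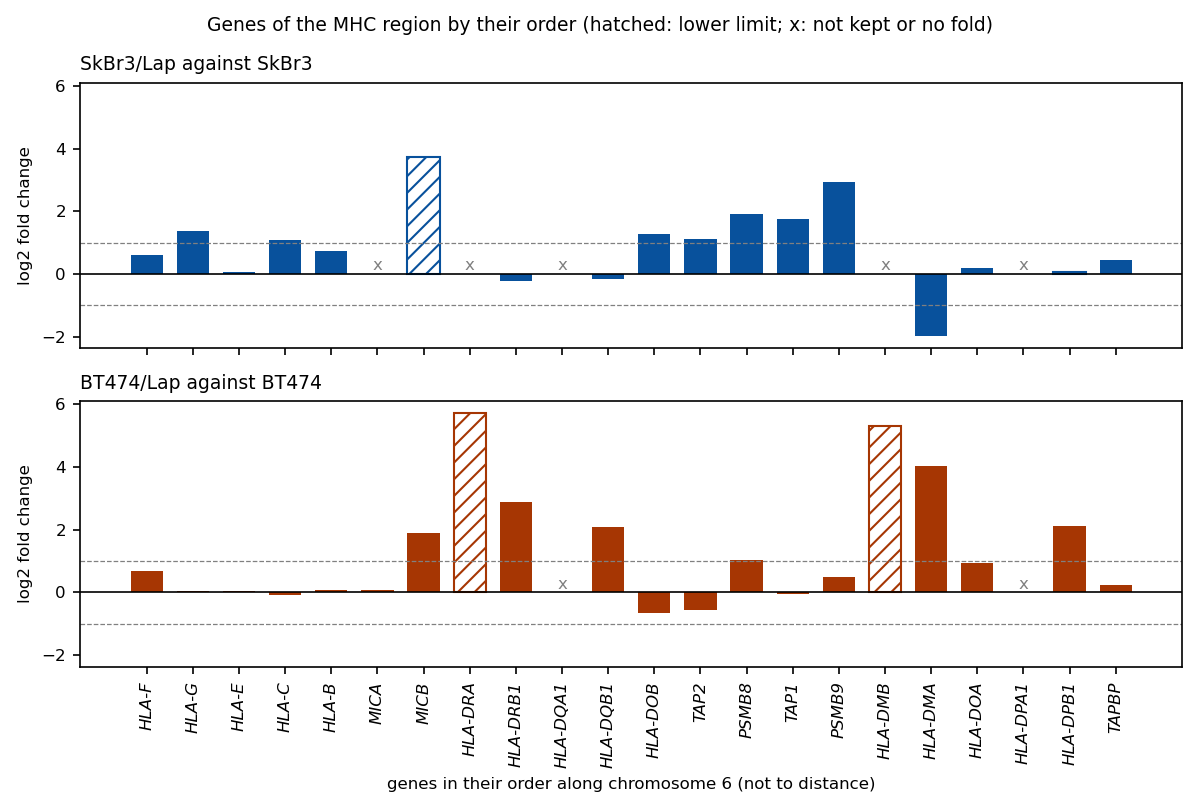
Log2 fold change of the 22 genes on chromosome 6 in their order along it, SkBr3/Lap above and BT474/Lap below, with hatched bars for lower limits and x where no probe was kept or no fold could be given. In the upper panel the bars from HLA-DOB to PSMB9 all exceed 1, and in the lower panel the high bars are HLA-DRA, HLA-DRB1, HLA-DQB1, HLA-DMB, HLA-DMA and HLA-DPB1.

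In the parental lines, 23 of the genes were measured on both arrays, and BT474 exceeded SkBr3 at least 2-fold for 5 and was at least 2-fold below it for 7, as it did for 16.6% and 17.8% of all 11059 genes so measured. Higher in BT474 were HLA-C (log2 difference 3.06), HLA-G (3.15), HLA-B (1.86), HLA-DQB1 (1.57) and HLA-DRB1 (1.32). Lower were HLA-DMA (-3.63), PSMB8 (-2.69), HLA-DOB (-2.21), RFX5 (-1.70), B2M (-1.69), TAP1 (-1.38) and PSMB10 (-1.13). Thus 3 of the 5 heavy chains stood higher in BT474, while HLA-F (-0.21) and HLA-E (0.32, and -1.22 by another probe) did not pass 2-fold by their brightest probes, and B2M, TAP1 and 2 immunoproteasome subunits stood higher in SkBr3. HLA alleles differ between people, and a different fit to the probe cannot be told apart from a different level here. A heavy chain probe may also bind transcripts of more than 1 chain, which was not tested, and the second HLA-G probe was at background on every array.

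Interferon-γ is the best known inducer of these genes, acting through a chain that includes IFNGR1, IFNGR2, JAK1, JAK2 and IRF1. Of 14 genes of interferon and JAK-STAT signalling, 4 were at least 2-fold higher and 0 lower in SkBr3/Lap, and 3 and 0 in BT474/Lap. Of all named genes, 13.5% were higher and 13.0% lower in SkBr3/Lap, and 8.60% and 5.15% in BT474/Lap. Higher in SkBr3/Lap were IFNGR1, IRF1, STAT2 (1.33) and SOCS3, and higher in BT474/Lap were JAK2, IFNAR2 (1.1) and SOCS3. STAT2 and IFNAR2 were named after their values were seen. IFNGR1 was at 3.09 in SkBr3 and 8.47 in SkBr3/Lap, and 2.14 in BT474 and 1.46 in BT474/Lap, with log2 fold changes of 1.45 and -0.55. IRF1, a transcription factor that binds interferon response elements, was higher in SkBr3/Lap alone, by 1.03 against 0.00. JAK2 was at 0.131, 0.114, 0.0219 and 0.146, or -0.19 and 2.73, so that it was higher in BT474/Lap, from a lower start. JAK1, also named after its values were seen, had log2 fold changes of 0.28 and 0.78, and 0.29 and 1.72 by its other probe. IFNGR2 (-0.39 and -0.29) and SOCS1 (0.01 and 0.38) stayed under 2-fold. SOCS3, a feedback inhibitor of JAK signalling, was higher in both clones by its kept probe (2.44 and 1.29). Its other probe was not kept and was not well above background in either parental line. That probe gave a log2 limit of at least 0.50 in SkBr3/Lap and no fold in BT474/Lap. The rise of SOCS3 was thus past 2-fold by the kept probe only.

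Lists near the pathway held genes that changed in either direction, and those named, other than AZGP1 and VTCN1, were chosen after their values were seen. Of all named genes, 13.5% were at least 2-fold higher and 13.0% lower in SkBr3/Lap, and 8.60% and 5.15% in BT474/Lap. Of 5 endoplasmic reticulum chaperones, 0 were at least 2-fold higher and 1 was lower, HSP90B1 in SkBr3/Lap (-1.08), with medians of -0.63 and -0.50 in the clones. These calls depend on the probe, as in SkBr3/Lap another HSP90B1 probe gave -0.62. The chaperone CANX was there at -0.76 by its brighter probe and -1.44 by the other. Of 5 endosomal proteases and reductases, the protease CTSD was lower in SkBr3/Lap (-1.51) and higher in BT474/Lap (1.09), and the thiol reductase IFI30 was lower in BT474/Lap (-1.57). Among 5 kept genes of MHC-like molecules and other NKG2D ligands, PROCR (-1.83) and ULBP2 (-1.58) were lower in SkBr3/Lap, and AZGP1, a secreted MHC-like protein, was lower in both clones (-4.20 and -2.12). Among 5 kept ligands of T cell costimulation and checkpoints, CD274, which encodes PD-L1 (2.39), and CD276 (2.24) were higher and CD40 (-1.91) lower in SkBr3/Lap. VTCN1, the inhibitory ligand B7-H4, was lower in both clones (-2.35 and -1.36). Of 6 reference genes, 0 changed 2-fold in either clone.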

How the data were processed

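For each of 4 samples the authors deposited the output of 1 Agilent Human Whole Genome array, and the values used are processed signals, an intensity on a linear scale after background subtraction, with no scaling between arrays. Per the file headers it came from Feature Extraction 10.1.1.1 in 1 colour, whereas the methods name an earlier version, Cy3 or Cy5 and LOWESS. The authors also deposited a log2 table per probe, which was used as an alternative. Between arrays, it gave the same differences as the processed signals to within 0.616 on the log2 scale.

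Here spots were averaged per probe on the log2 scale, and the 75th percentile over the 41000 probes of an array was taken off. Kept were probes with a signal of at least 100 on at least 1 array (25927 probes). The software's mark for signals well above background had to be on 50% or more of a probe's spots. Probes were named through RefSeq accessions (GRCh38.p14, names and gene order only), and where a gene had several kept probes the one of highest mean was used. Each clone was compared with its parental cells at a threshold of 2-fold, with limits where 1 side was not well above background. Both clones were tested together with limma 3.58.1 in R 4.3.3 and Benjamini-Hochberg adjustment over all kept probes, and the calculations were tested on simulated data. Other values used Python 3.11.15, numpy 2.4.6 and pandas 2.3.3. Given with all 4 arrays are genes of the set that changed at least 2-fold in a clone, and B2M, HLA-B, HLA-C, HLA-E, TAP1, PSMB9, NLRC5, CIITA, CD74, HLA-DRA, RFX5 and MICA in any case. Of further lists, those that changed 2-fold the same way in both clones are named, with IRF1, IFNGR1, IFNGR2, JAK2 and SOCS1, and 1 other gene of this rule is not reported here. The genes and lists were chosen with earlier results of these data known. CIITA, CTSS, HLA-DRA, HLA-E, NLRC5 and PDIA3 have no promoter window in the table used.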

Additional observations from a re-analysis of the deposited data

Results flagged for a closer look

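Genes of the set that were at least 2-fold changed in one clone and lay on the opposite side of 0 in the other, by more than the 0.11 that is typical of spots, are given here. The difference between the clones was not tested, since each value rests on 1 array per condition. The log2 fold change of HLA-DMA was -1.99 in SkBr3/Lap but 4.03 in BT474/Lap, and that of NLRC5 was 2.02 and -1.37 by its kept probe. HLA-DRB1 had values of -0.21 and 2.88 and HLA-DQB1 of -0.15 and 2.09, so that the SkBr3/Lap values of both were near 0. The former is a difference between means of 10 spots, whose SDs among single spots were 0.20 and 0.17 in the SkBr3 pair. Its sign turned to 0.04 with the percentile over probes well above background. The SkBr3/Lap value of HLA-DQB1 turned to 0.10 with that percentile and to 0.01 with median scaling, so an opposite direction is not shown for either gene. The order was turned for TAP2, with 1.11 for SkBr3/Lap and -0.56 for BT474/Lap, and for HLA-DOB, at 1.28 and -0.67. Before scaling, however, their signals in BT474 and BT474/Lap were dim and nearly level, at 47 and 46.3 for TAP2. Those of HLA-DOB were 35.4 and 32.3, so both negative values come mostly from the scaling between arrays. They stayed negative under every alternative, at -0.79 to -0.27 for TAP2 and -0.89 to -0.32 for HLA-DOB. The second TAP2 probe was too dim in the BT474 pair to give a fold.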

How the results depend on the processing

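The count of genes at least 2-fold higher in SkBr3/Lap was 12, moved to 6 at a threshold of 3-fold, and was 10 to 13 under the other alternatives. That in BT474/Lap was 9, moved to 4 with only probes well above background on all 4 arrays, and was 8 to 11 otherwise. The count of lower genes was 1 in each clone. In BT474/Lap it was 0 after normexp correction with quantile normalization and at 3-fold, and 2 without the filter on signal. The median log2 fold change in SkBr3/Lap moved from 0.67 to 0.93 with the percentile over probes well above background, 0.83 with median scaling, 0.56 with normexp and 0.90 with the mean over a gene's kept probes. In BT474/Lap it moved from 0.43 to 0.71 with that percentile, to 0.23 with median scaling and to 0.08 where every probe had to pass the background mark on each array. The cause was not tested, apart from the fewer genes of the filters and the constants of the scalings. The 23 values of genes called 2-fold in a clone kept their sign under every scaling and with the deposited table, and 19 stayed past 2-fold. limma found 0 genes under every fit run, and with the slide as a random block it could not be fitted. No paired analysis was possible because the groups share only replicate number 1, apart from the limma fit that sets each clone against its own parental line, and no replicate could be left out. Signal near background leaves only lower limits for HLA-DRA and HLA-DMB in BT474/Lap and MICB in SkBr3/Lap, and these limits depend on the treatment of the background.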
